A study of Mus musculus with 12 samples.

Results

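The comparison described here set 4 libraries of mouse mammary tumour organoids carrying a second short hairpin RNA against Cldn7, here called hairpin 2, against 4 libraries with a hairpin that targets no gene, the control. Libraries were taken by their labels, sh2Cldn7 and shControl, and were matched by the replicate number, 1 to 4, that the titles give, so that 8 of the 12 libraries of the series entered the contrast. The remaining 4 libraries carried another hairpin against the same gene, hairpin 1, and were used to estimate the spread and to compare the hairpins. Gene expression was measured by RNA sequencing of poly(A) RNA, counted as reads per gene. The question stated for the study was what loss of Cldn7 does to invasion and metastasis.

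All groups shared the same source and handling. The organoids came from primary tumours of MMTV-Neu mice, and the labels describe the material as primary epithelial cells of the mammary gland. Lentivirus was given at a multiplicity of infection of 20, followed by puromycin at 3 µg/ml for 3 days, in medium whose growth factor was FGF2 at 2.5 nM, and the organoids were then held in fibrillar collagen I for 5 days. The control is labelled WT with the treatment Non-targetting sh, and the hairpin 2 group is labelled sh2Cldn7 knockdown with sh2 treatment. The control organoids carry the MMTV-Neu transgene as well, although their genotype label reads WT. In this model the mammary tumour virus promoter drives the Neu oncogene in the mammary epithelium, so it stands for Erbb2-driven tumours and not for other kinds. No age is stated in the labels, and nothing in them says whether replicates are separate animals or separate cultures. The p-values thus reflect the spread among these libraries alone, and that spread may be technical.

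Claudins are membrane proteins of the tight junctions that join epithelial cells to each other, and claudin 7 is also found along the lateral membrane and is known to bind the adhesion molecule Epcam. Cells cut a short hairpin RNA into a small guide RNA, which directs the breakdown of messages that it matches.

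The labelled epithelial cell type was checked against 8 markers. Their summed level was 7398 to 10330 CPM (read counts relative to library size) in the control and 7749 to 8672 CPM with hairpin 2, with none of the markers at 0. Erbb2 was the largest part of that sum, at 2960 to 6548 CPM in the control and 3208 to 5734 CPM with hairpin 2. Krt8 and Krt18 were lowest in replicate 4 of both groups. They stood there at 614.7 and 435.2 CPM in the control and 602.8 and 385.5 CPM with hairpin 2. Cdh1 ran from 466 to 639 CPM in the control and 445 to 606 CPM with hairpin 2. An even sum is thus not an even level of each marker. Total counts were 35803101 to 44645514 in replicates 1 and 2 of these 8 libraries and 68581024 to 76329473 in replicates 3 and 4. The division between replicates 1 and 2 and replicates 3 and 4 was also the main axis of variation, with 70.8% of the variance of the 12 libraries on the first principal component. Leukocyte transcripts followed it, with macrophage markers summing to 54.7 to 212 CPM in replicates 1 and 2 and 5.91 to 11.3 CPM in replicates 3 and 4 of the 2 groups. Effects are therefore given as differences between libraries with the same number, and separately in replicates 1 and 2 and in replicates 3 and 4 where a group of genes rests on them.

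Cldn7 (NCBI Gene 53624, chr11:69964779-69967886 on GRCm38.p6) was the targeted gene, which makes it a check of the labels. Control replicates 1 to 4 held 144, 136, 186 and 101 CPM, and the corresponding hairpin 2 libraries held 27.5, 25.4, 34.7 and 26.1 CPM. All 4 hairpin 2 libraries lay below all 4 control libraries. The log2 fold change was -2.30 (SE 0.083, edgeR adjusted p = 9.79e-07), so that 20.3% of the control level remained. The exact two-sided permutation test over the 8 libraries gave p = 0.0286, the smallest value it can give for 4 against 4. An exact test that keeps the 4 pairs cannot go below 0.125, and it gave that value. The log2 fold change was -2.41 in replicates 1 and 2 and -2.17 in replicates 3 and 4. Hairpin 1 had left Cldn7 at -2.07, and hairpin 2 minus hairpin 1 was -0.23 (SE 0.081, edgeR adjusted p = 0.149), so a difference in knockdown between the hairpins was not past the threshold of 0.05.

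Of 17025 genes tested, 482 rose and 499 fell with hairpin 2, which is 2.83% and 2.93% of the genes tested. Among them 126 rose and 31 fell by more than 2-fold. The log2 fold change had the same sign in all 4 pairs of libraries for 971 of the 981 genes, which a paired test favours by its construction. Over all genes tested 12.6% were higher in all 4 pairs and 12.8% were lower in all 4. Of the genes that rose, 68 had all 4 hairpin 2 libraries above all 4 control libraries, and of those that fell, 115 had all 4 below. Over all genes tested those shares were 0.887% and 1.22%. The median log2 fold change of all genes tested was 0.0044, so the scaling was centred near 0. These calls rest on matching by replicate number: without it only Cldn7 passed edgeR's test, with 606 genes at an unadjusted p under 0.05. They also rest on the 12-library estimate of the spread, since the 8 libraries fitted alone gave 51 higher and 46 lower.

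**Figure D1:**
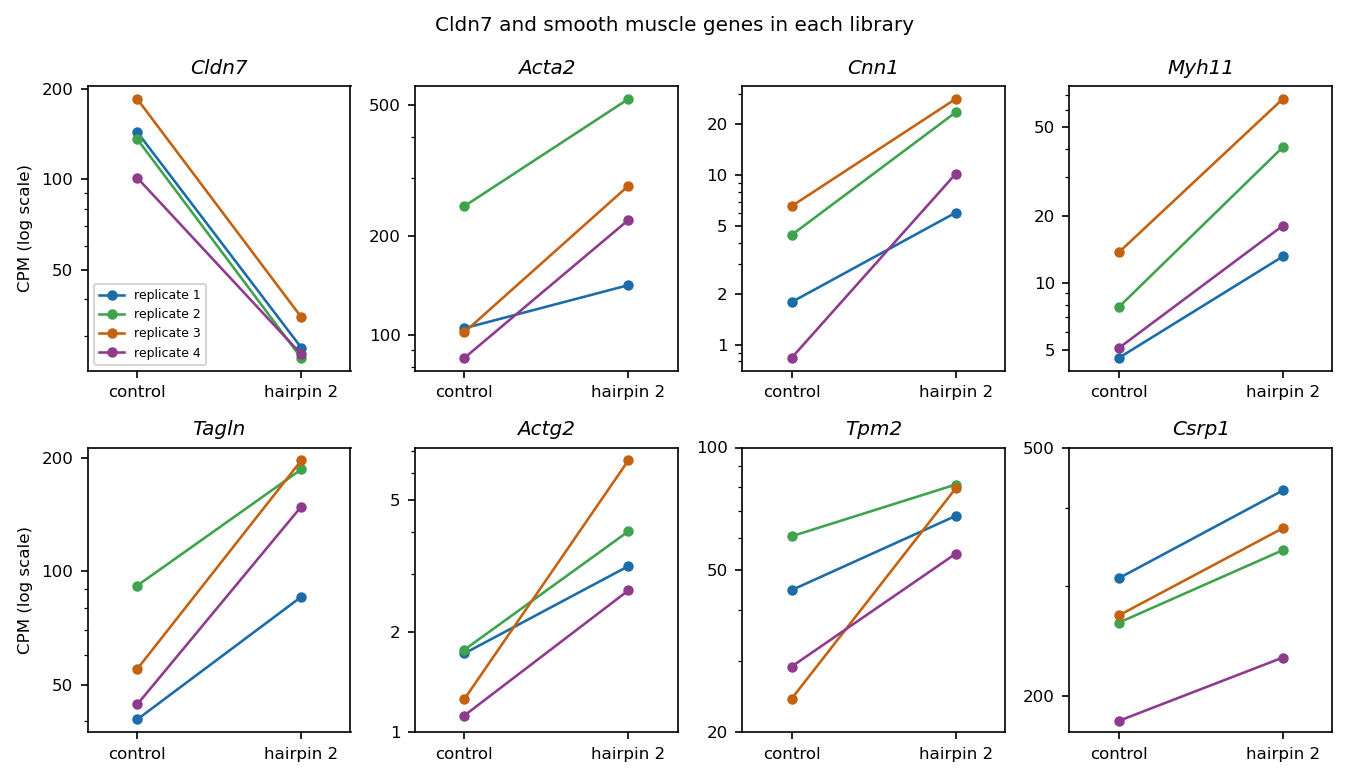
Level in CPM (log axis) of Cldn7 and 7 smooth muscle genes in control and hairpin 2 libraries, with a line joining the libraries of the same replicate number. Cldn7 fell in all 4 pairs and the other 7 genes were higher with hairpin 2 in all 4 pairs, from different starting levels.

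The title of the study names alpha smooth muscle actin, and the list of smooth muscle contractile genes was chosen with earlier results known. The list is thus no independent evidence of a direction. Most of its genes encode the actins, myosins and actin-binding proteins with which smooth muscle and mammary myoepithelial cells contract. Of 25 tested, 7 rose, 2 fell and 16 did not pass, and the median log2 fold change was 0.39 against 0.0044 over all genes tested. Among the 16 that did not pass were the myosin light chain Myl9, its kinase Mylk, smoothelin Smtn and leiomodin Lmod1, at 0.41, 0.33, 0.093 and 0.21. The median was 0.35 in replicates 1 and 2 and 0.49 in replicates 3 and 4, where all genes tested had medians of 0.003 and 0.012.

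Acta2 (chr19:34240336-34255585), the gene of alpha smooth muscle actin, had 105, 246, 102 and 85.0 CPM in control replicates 1 to 4 and 142, 522, 284 and 224 CPM with hairpin 2. It was higher in each of the 4 pairs, while the groups overlapped because control replicate 2 lay above hairpin 2 replicates 1 and 4. Acta2 rose by 1.145 (SE 0.225, log2; edgeR adjusted p = 0.0193), which is 2.21-fold. The free exact permutation test gave p = 0.0857 (two-sided). The call was lost without control replicate 1, 3 or 4 or hairpin 2 replicate 4 (edgeR adjusted p = 0.0541, 0.0704, 0.0537 and 0.0676), and the log2 fold change then ran from 0.97 to 1.19. With hairpin 1 it was 0.50 (edgeR adjusted p = 0.384), and the hairpins did not differ past the threshold (0.64, edgeR adjusted p = 0.151).

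Further contractile genes rose as well. Cnn1, which encodes the actin-binding calponin 1, stood at 1.79, 4.44, 6.57 and 0.836 CPM in the control and at 6.02, 23.5, 28.2 and 10.2 CPM with hairpin 2. Only hairpin 2 replicate 1 lay within the control range. Cnn1 rose by 2.49 (SE 0.33, edgeR adjusted p = 0.00394). Myh11, the smooth muscle myosin heavy chain, went from 4.61, 7.79, 13.7 and 5.10 CPM to 13.2, 40.7, 67.0 and 18.1 CPM. It rose by 2.03 (SE 0.32, edgeR adjusted p = 0.0083), at 2.00 in replicates 1 and 2 and 2.07 in replicates 3 and 4. For Cnn1 and for Myh11 the free exact permutation test gave p = 0.0571 (two-sided).

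Actg2, the smooth muscle gamma actin, was the list member whose groups did not overlap, at 1.12 to 1.77 CPM in the control and 2.67 to 6.57 CPM with hairpin 2, and it rose by 1.46 (SE 0.29). Tagln, which encodes transgelin, rose by 1.47 (SE 0.24) from 40.4 to 91.6 CPM in the control to 85.6 to 197 CPM, but 67.9% of its exon bases overlap transcripts of the opposite strand that belong to Pcsk7 and Gm48529, and reads of these cannot be told apart without strand. Tpm2, a tropomyosin, rose by 0.94 (SE 0.19). The LIM-domain gene Csrp1 rose by a smaller and even amount, 0.41 (SE 0.051), and with hairpin 1 it stood at 0.39. The integrin Itga8 fell by 0.29 on the log2 scale. Of the 9 calls, 4 stood in each of the 8 fits with 1 library left out, and 4, 5 and 5 stood without control replicate 1, control replicate 3 and hairpin 2 replicate 4.

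Markers of other cell types that carry these proteins were measured beside them. Of 14 pericyte and vascular smooth muscle markers tested, 3 rose: the growth factor receptor Pdgfrb (0.68), the signalling regulator Rgs4 (1.41) and the proteoglycan Cspg4 (0.74). The calls of Rgs4 and Cspg4 were lost without control replicate 1, 3 or 4 or hairpin 2 replicate 1, 3 or 4, and that of Pdgfrb stood in all 8 fits with 1 library left out. The median log2 fold change of the 14 tested was 0.51, at 0.50 in replicates 1 and 2 and 0.53 in replicates 3 and 4. The summed level of the 16 markers was 445, 544, 555 and 748 CPM in the control and 499, 553, 643 and 878 CPM with hairpin 2. Much of that sum was Anpep and Notch3, which changed little. They stood at 209 to 292 and 126 to 178 CPM in the control and at 221 to 279 and 129 to 157 CPM with hairpin 2. Fibroblast markers summed to 2273, 2885, 924 and 6422 CPM in the control and to 3395, 3199, 2712 and 14050 CPM with hairpin 2, so the gap between the libraries of a pair was widest in replicates 3 and 4. The higher sum in replicate 2 rested on Postn, at 2328 CPM with hairpin 2 against 1675 CPM. Col1a1 and Col1a2 were lower there, at 293 against 559 CPM and 294 against 426 CPM. No marker of these lists was at 0 in all 8 libraries, and the pericyte marker Rgs5 stood at 0.374 to 0.713 CPM in the control and 0.790 to 2.97 CPM with hairpin 2. The part of these markers in the smooth muscle result was not tested. In such bulk samples, fewer or more cells of a type and less or more RNA per cell cannot be told apart.

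**Figure D2:**
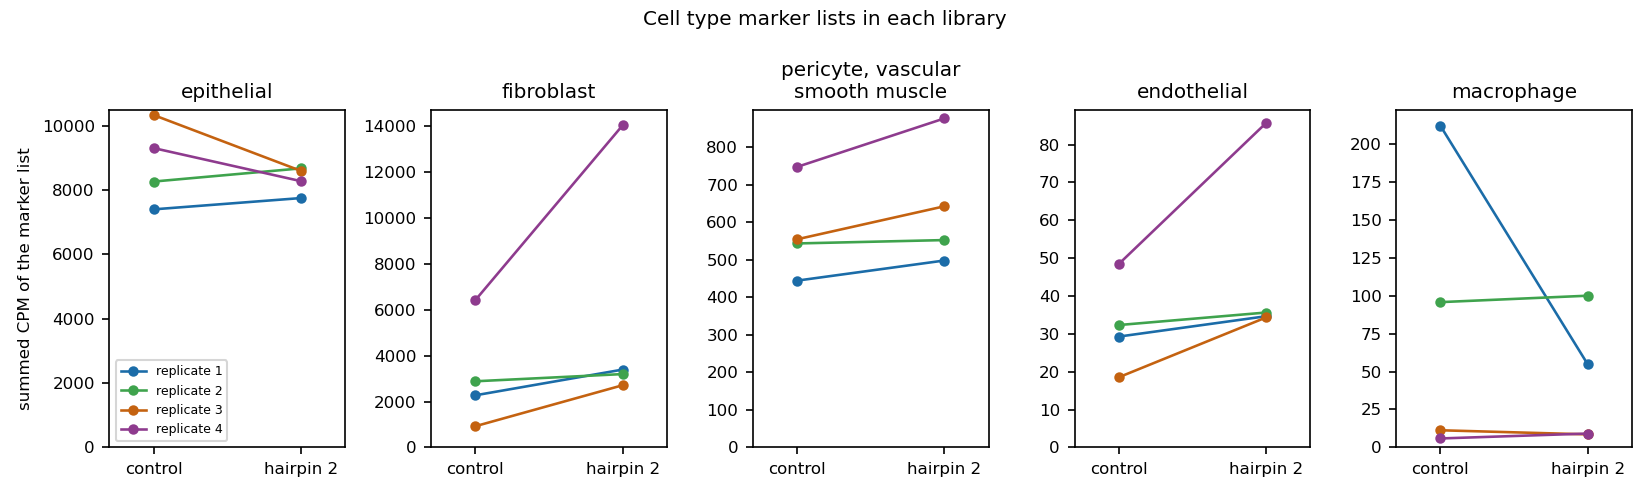
Summed level in CPM (linear axes from 0) of 5 marker lists in each control and hairpin 2 library, with a line joining libraries of the same replicate number. The fibroblast sum was higher in all 4 hairpin 2 libraries than in their controls and reached 14050 CPM in replicate 4. In replicate 2 Postn was higher with hairpin 2, while Col1a1 and Col1a2 were lower. The epithelial sum ran from 7398 to 10330 CPM with Erbb2 as its largest part, and Krt8 and Krt18 were lowest in replicate 4 of both groups.

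Basal and myoepithelial genes, which mark the outer cell layer of the mammary duct, formed a further group with many higher members. Of 29 tested, 9 rose and 1 fell, with a median of 0.61, but the median was 0.066 in replicates 1 and 2 and 1.12 in replicates 3 and 4. The fibroblast markers had medians of 0.11 and 0.93 in the same sets of replicates, and their part in the basal result was not tested. Lgr5, a receptor for R-spondins found on stem cells, stood at 3.63, 12.1, 11.4 and 10.8 CPM in the control and at 15.2, 19.2, 44.3 and 41.6 CPM with hairpin 2. Its groups did not overlap, and it rose by 1.62 (SE 0.25, edgeR adjusted p = 0.00774) and kept the call in all 8 fits with 1 library left out. Bcl11b, a transcription factor of basal mammary stem cells, went from 3.81 to 6.66 CPM to 9.20 to 10.5 CPM with no overlap and rose by 1.09 (SE 0.18). Id4, an inhibitor of helix-loop-helix factors, and Mme, a surface peptidase, also rose without overlap, by 1.23 (SE 0.23) and 1.10 (SE 0.24).

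The transcription factors Trp63 and Snai2 rose by 0.56 and 0.99, P-cadherin Cdh3 by 1.11, the hemidesmosomal collagen Col17a1 by 0.96 and the Notch ligand Jag2 by 0.79. The Notch ligand Dll1, which is made by basal cells, fell by 0.69 (SE 0.093). With hairpin 1 Dll1 was at 0.355 (edgeR adjusted p = 0.126), and the hairpins differed by -1.05 (edgeR adjusted p = 0.000579). Of its exon bases 20.5% overlap a transcript of the opposite strand. The basal keratins Krt5 and Krt14 did not pass, at 1.14 (SE 0.31, edgeR adjusted p = 0.0617) and 0.70 (SE 0.26, edgeR adjusted p = 0.144). In replicate 2, Krt14 was lower with hairpin 2 than in the control, at 1149 against 1599 CPM. Of the 10 calls, 4 stood in all 8 fits with 1 library left out, and 4 stood without control replicate 3.

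Mesenchymal and matrix genes moved with the fibroblast markers. The fibroblast and interstitial matrix lists share the genes Dcn and Postn, so this likeness is in part built in. Of 25 mesenchymal genes 8 rose and 0 fell, and of 24 interstitial matrix genes 7 rose and 0 fell, with medians of 0.57 and 0.66. In replicates 1 and 2 these medians were 0.25 and 0.13, and in replicates 3 and 4 they were 1.08 and 1.14. Bgn, a small matrix proteoglycan, stood at 269, 125, 90.5 and 855 CPM in the control and at 377, 242, 260 and 1631 CPM with hairpin 2, higher in every pair although the groups overlapped widely. It rose by 0.97 (SE 0.15, edgeR adjusted p = 0.00709). Prrx1, a homeobox gene of mesenchyme, rose by 1.04 (SE 0.16), decorin (Dcn) by 1.02 (SE 0.17), periostin (Postn) by 1.05 (SE 0.21) and osteonectin (Sparc) by 0.79 (SE 0.16).

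The mesenchymal cadherin Cdh11 rose by 0.76, the receptor kinase Axl by 0.77 and the collagen Col6a3 by 0.67. Vim and Fn1, the intermediate filament and the matrix protein most often used as mesenchymal markers, did not pass, at 0.41 (SE 0.14) and 0.85 (SE 0.31). Fn1 was lower with hairpin 2 in replicate 2 (980 against 1346 CPM) and higher in the other 3 pairs. The epithelial-mesenchymal transition factors Zeb1, Zeb2 and Twist1 were at 0.36, 0.57 and 0.38 and did not pass either. Of 24 basement membrane genes 5 rose: Col4a2 (0.74), Col7a1 (0.82), Hspg2 (0.61), Col17a1 and the nidogen Nid2 (1.02). The fibroblast sums given above moved in the same pairs, and Col1a1, a main fibroblast collagen, stood at 690, 559, 91.3 and 1391 CPM in the control and 1119, 293, 200 and 3220 CPM with hairpin 2. Their part in the mesenchymal and basement membrane results was not tested. Of the 8 mesenchymal calls, 3 stood without control replicate 3 or without hairpin 2 replicate 4, and of the 7 matrix calls 2 stood without control or hairpin 2 replicate 4. Of the 5 basement membrane calls, 1 stood without control replicate 1, 3 or 4 or without hairpin 2 replicate 4, 2 without hairpin 2 replicate 3 and 3 without hairpin 2 replicate 1.

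**Figure D3:**
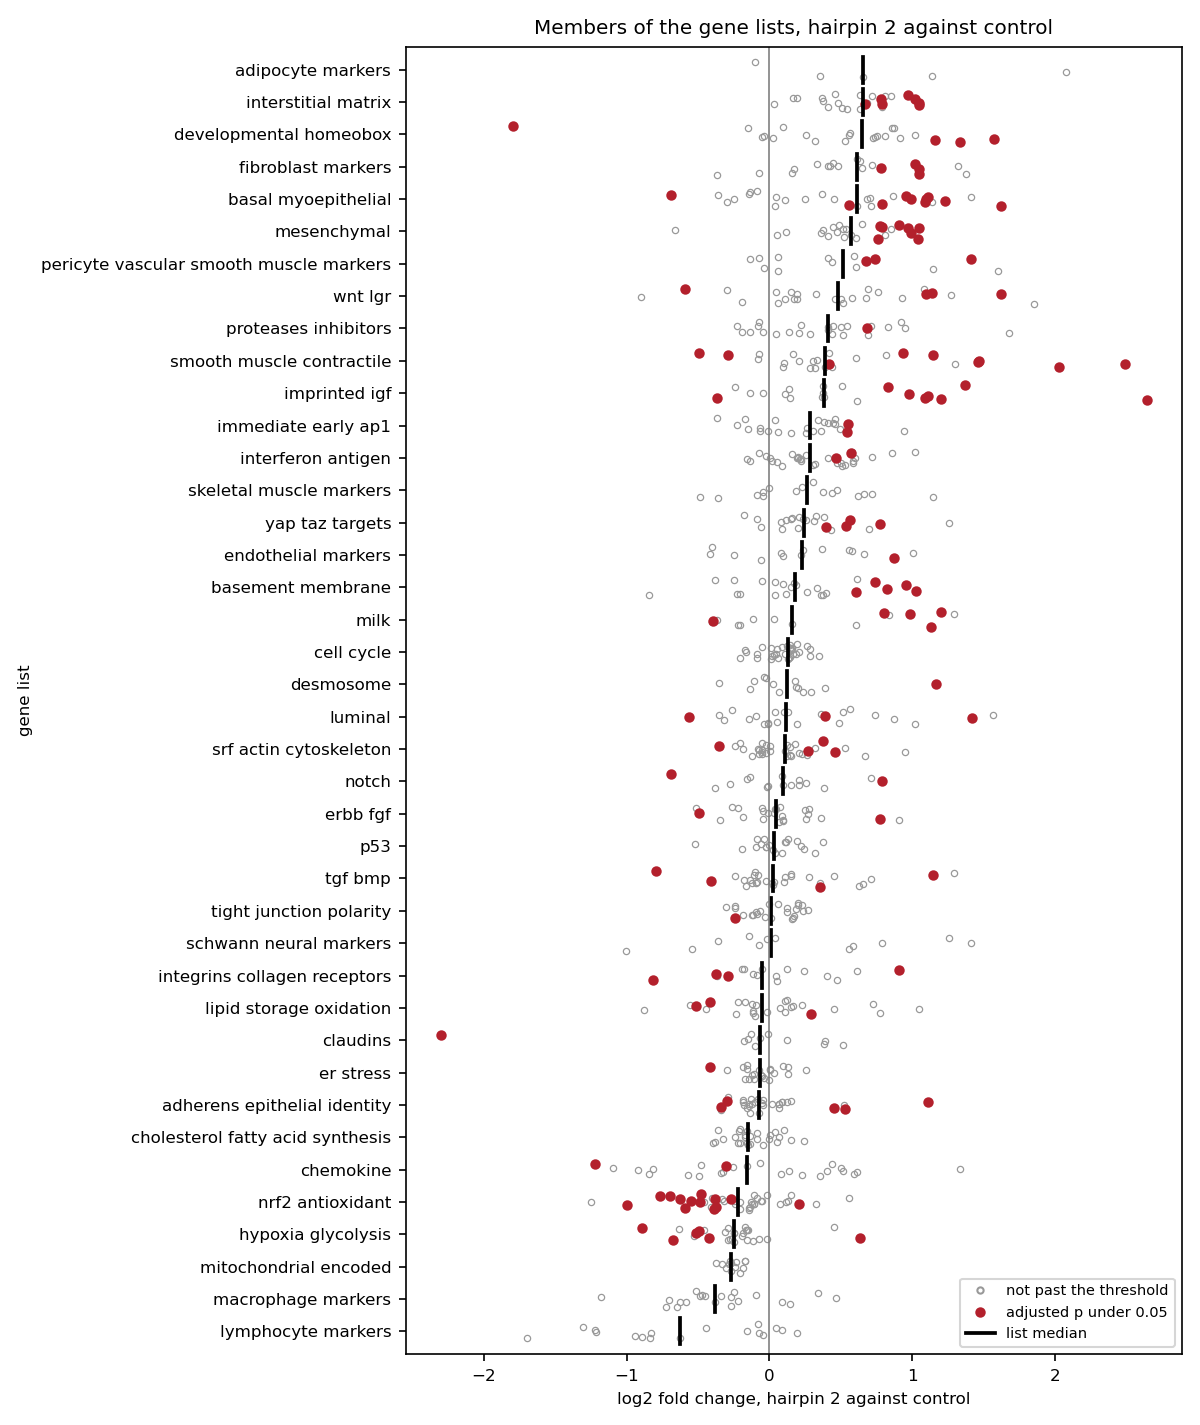
Log2 fold change (hairpin 2 against control) of each tested member of the 40 gene lists, 1 line per list, ordered by the list median. Filled points passed an adjusted p under 0.05 and black bars are medians: the NRF2 list held 12 of its 13 calls below 0, and the interstitial matrix list all 7 of its calls above 0.

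Genes of the antioxidant response were mostly lower with hairpin 2. NRF2, the product of Nfe2l2, is a transcription factor that is bound and handed to degradation by Keap1, and that on release binds antioxidant response elements in front of genes for glutathione use, quinone reduction and NADPH supply. Of 42 genes of this system tested, 12 fell, 1 rose and 29 did not pass, with a median of -0.22. Of the 42, 22 were lower in all 4 pairs and 2 higher in all 4. The median was -0.32 in replicates 1 and 2 and -0.19 in replicates 3 and 4, so its sign was the same in both.

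Nfe2l2 itself stood at 105, 106, 121 and 107 CPM in control replicates 1 to 4 and at 74.3, 75.8, 77.4 and 85.0 CPM with hairpin 2. The groups did not overlap, and the spread within each was small. Nfe2l2 fell by 0.49 on the log2 scale (SE 0.057, edgeR adjusted p = 0.00254), with an exact two-sided permutation p of 0.0286, the smallest that 4 against 4 allows. Groups that do not overlap give this unadjusted value in any gene, and 1.22% of all genes tested lay wholly below the control. Nfe2l2 was also named with earlier results of these data known, so that p adds no independent evidence. The edgeR call of Nfe2l2 stood in all 8 fits with 1 library left out. Keap1, its inhibitor, was the 1 gene of the list that rose, by 0.20 (SE 0.047, edgeR adjusted p = 0.0344), and that call was lost in each of those 8 fits.

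Among the genes that passed, glutathione transferases had the largest falls, while the transferase Gsta2, at -1.25 (SE 0.46), did not pass. Gsta3, an alpha-class transferase, stood at 71.9, 45.4, 28.8 and 40.1 CPM in the control and at 35.4, 25.4, 16.01 and 16.04 CPM with hairpin 2, lower in every pair with 1 hairpin 2 library inside the control range. It fell by 0.999 on the log2 scale (SE 0.12, edgeR adjusted p = 0.00249). The transferases Gstm1 and Gstp1 and the microsomal Mgst1 were at -0.77 (SE 0.083), -0.69 (SE 0.099) and -0.48 (SE 0.072). Gstm1 and Gstp1 belong to families with near-identical copies, and 21.3% and 46.4% of their sampled transcript sequence also occurs in other genes, so their counts may be split. Gclm, the modifier subunit of the enzyme that starts glutathione synthesis, fell by 0.38 on the log2 scale (SE 0.070).

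Genes of NADPH supply and quinone, iron and thioredoxin handling made up the rest. G6pdx, the entry enzyme of the pentose phosphate pathway, was at -0.59 (SE 0.065), its partner Pgd at -0.38 (SE 0.060) and malic enzyme Me1 at -0.39 (SE 0.081). The quinone reductase Nqo1 was at -0.63 (SE 0.098), ferritin heavy chain Fth1 at -0.55 (SE 0.10) and thioredoxin reductase Txnrd1 at -0.27 (SE 0.059). All of these passed edgeR's test, with adjusted p from 0.00211 for G6pdx to 0.0289 for Txnrd1. Of G6pdx and Me1, 19.9% and 35.2% of the sampled sequence is shared with other genes. Not past the threshold were heme oxygenase Hmox1 and the cystine transporter Slc7a11, at -0.24 and -0.46. Of the 13 calls, 8 stood in all 8 fits with 1 library left out, and 8 stood without control replicate 1 or without hairpin 2 replicate 4.

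The stretches before the start of 4 of the genes that fell are shown because they hold the core letters of an antioxidant response element, TGACNNNGC, which was searched on both strands in the 250 bases before each RefSeq start (RefSeq, GRCm38.p6). Capitals mark the match, and each run is given 5′ to 3′ on the strand of the gene.
Gsta3: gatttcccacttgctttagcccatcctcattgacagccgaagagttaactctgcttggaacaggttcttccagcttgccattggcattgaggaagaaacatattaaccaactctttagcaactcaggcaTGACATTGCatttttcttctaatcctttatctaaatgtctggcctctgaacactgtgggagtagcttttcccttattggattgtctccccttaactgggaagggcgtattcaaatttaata
Gclm: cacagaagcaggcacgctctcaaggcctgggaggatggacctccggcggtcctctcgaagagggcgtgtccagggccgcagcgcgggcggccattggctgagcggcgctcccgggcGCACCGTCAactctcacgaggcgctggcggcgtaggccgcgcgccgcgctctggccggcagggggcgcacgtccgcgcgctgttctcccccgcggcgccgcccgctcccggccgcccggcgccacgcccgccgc
Mgst1: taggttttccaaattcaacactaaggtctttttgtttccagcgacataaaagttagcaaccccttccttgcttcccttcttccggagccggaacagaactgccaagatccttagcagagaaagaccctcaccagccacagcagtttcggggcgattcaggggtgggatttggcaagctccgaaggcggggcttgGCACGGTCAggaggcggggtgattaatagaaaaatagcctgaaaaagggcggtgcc
Txnrd1: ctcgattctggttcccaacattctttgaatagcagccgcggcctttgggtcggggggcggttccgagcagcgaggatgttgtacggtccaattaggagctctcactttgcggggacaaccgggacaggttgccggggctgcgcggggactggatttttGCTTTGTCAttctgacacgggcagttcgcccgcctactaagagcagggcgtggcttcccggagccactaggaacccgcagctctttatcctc
They lie at chr1:21240335-21240584, chr3:122245307-122245556, chr6:138140277-138140526 and chr10:82858956-82859205, all on the plus strand. The first base of the match lies 121, 134, 56 and 92 bases before the start in Gsta3, Gclm, Mgst1 and Txnrd1. In Gsta3 the match reads forward, and in Gclm, Mgst1 and Txnrd1 it reads on the other strand. A match was held by 10 of the 36 list members for which RefSeq gave a promoter (27.8%), and by 6 of the 13 members that passed the test (46.2%), the other two being Nfe2l2 and G6pdx. The share was 13.7% over all genes tested that had a promoter, and 10.2% over all promoters given. The list was made of genes of the NRF2 system, which acts through such elements. A share above that of all genes is therefore in part built in. A match is a description of these letters, not a shown binding site. A second motif, the CArG box (CC, a run of A or T letters, then GG), was searched in the same way for the smooth muscle list. It was held by 2 of the 21 members with a promoter (9.52%) and by 0 of the 5 such members that passed. Over all genes tested that had a promoter the share was 1.45%.

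**Figure D4:**
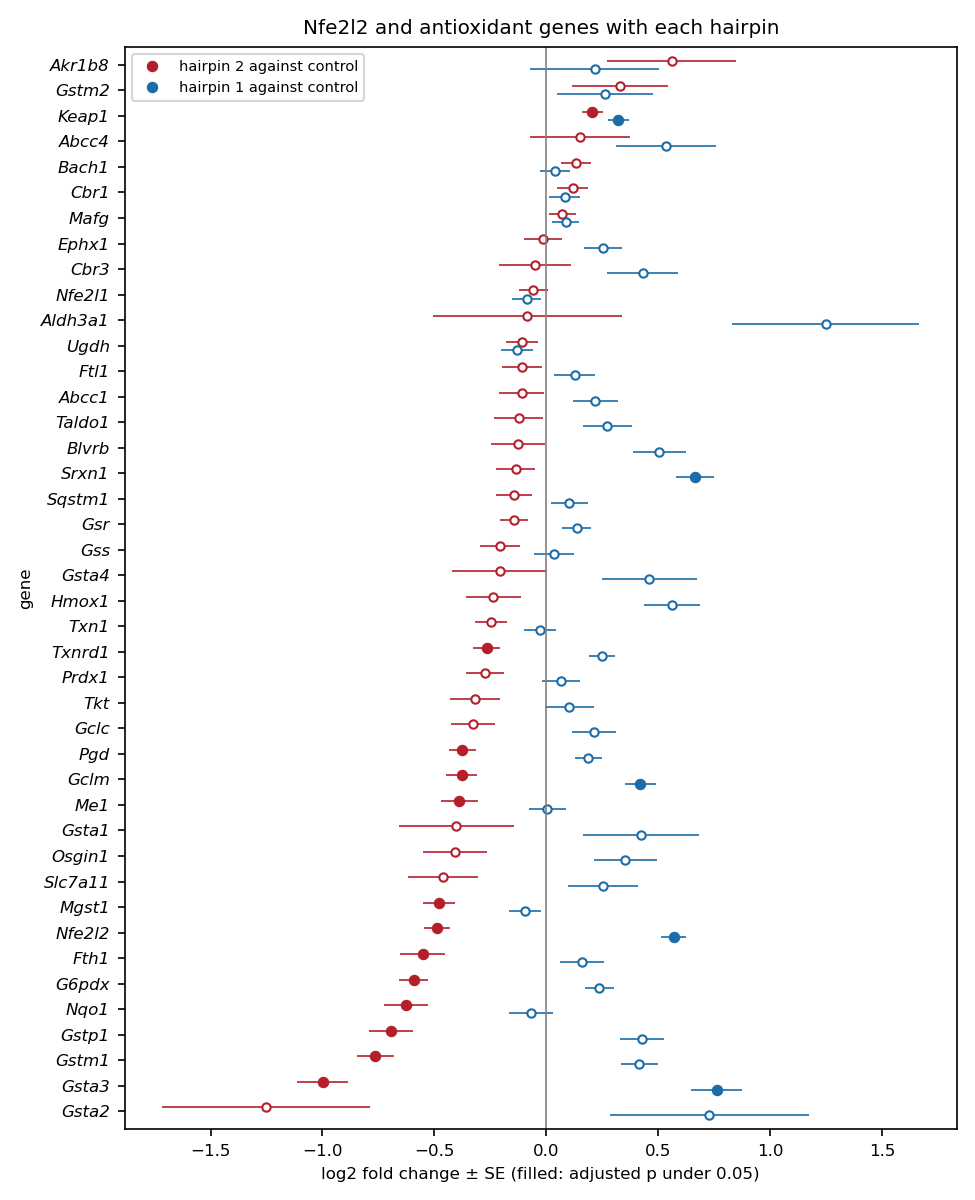
Log2 fold change against the control with its SE for 42 genes of the antioxidant list, Nfe2l2 among them, with hairpin 2 and with hairpin 1, where filled points passed an adjusted p under 0.05. With hairpin 2, 35 of the 42 genes lay below 0 and Nfe2l2 was at -0.49, while with hairpin 1 Nfe2l2 was at 0.57.

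The antioxidant genes were then compared between the hairpins. The hairpins share the control libraries, so their values are set side by side and the difference was tested as hairpin 2 minus hairpin 1. The control libraries stayed in that model and entered its estimates of the spread and of the replicate terms. Over all genes tested, 267 were higher and 318 lower with hairpin 2 than with hairpin 1, which is 1.57% and 1.87%. Of the 42 antioxidant genes, 20 were lower and 0 higher. Nfe2l2 was at 0.57 with hairpin 1 (edgeR adjusted p = 0.00592) and at -0.49 with hairpin 2, a difference of -1.06 (SE 0.057, edgeR adjusted p = 5.24e-05). Gsta3 was at 0.76 and -0.999, a difference of -1.76 (edgeR adjusted p = 0.000141). Gclm was at 0.42 and -0.38, a difference of -0.80 (edgeR adjusted p = 0.000579). For Mgst1 and Nqo1, hairpin 1 gave -0.097 and -0.067, and the differences of -0.38 and -0.56 passed too (edgeR adjusted p = 0.0216 and 0.0154).

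Other genes that differed most between the hairpins were found in both directions. Chi3l1, a secreted chitinase-like protein, stood at 1285, 642, 915 and 437 CPM in the control and at 787, 369, 497 and 269 CPM with hairpin 2, and it fell by 0.77 on the log2 scale (SE 0.061). With hairpin 1 it was at 0.30, and the difference was -1.07 (edgeR adjusted p = 5.24e-05). The aldehyde oxidase Aox1 was at -0.72 with hairpin 2 and 0.34 with hairpin 1. Tmprss4, a membrane serine protease of epithelia, rose by 0.77 (SE 0.096) with hairpin 2 and fell by 0.60 on the log2 scale with hairpin 1, a difference of 1.37 (edgeR adjusted p = 0.000156). Of its exon bases 15.9% overlap a transcript of the opposite strand. Fbln5, an elastic fibre protein, stood at 21.7, 29.4, 26.4 and 59.1 CPM in the control and 45.7, 60.8, 90.9 and 115 CPM with hairpin 2, and it rose by 1.22 (SE 0.12) against 0.063 with hairpin 1. Pgm2l1, a sugar phosphate enzyme, and Arl4a, a small GTPase, rose by 0.39 and 0.32 with hairpin 2 and were at -0.24 and -0.17 with hairpin 1.

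Of the genes called with hairpin 2, 99 of the 482 that rose and 203 of the 499 that fell also passed in hairpin 2 minus hairpin 1. Genes chosen by their hairpin 2 values are favoured here by construction, because the same hairpin 2 libraries enter both contrasts. Against the control, hairpin 1 called 65 genes higher and 59 lower. Of the genes called with hairpin 2, 52 were called with hairpin 1 in the same direction and 5 in the opposite one. Among the smooth muscle genes called with hairpin 2, 0 of 9 differed between the hairpins past edgeR's threshold, although 7 had an unadjusted p under 0.05. The nearest was Cnn1, at 1.18 with hairpin 1 and 2.49 with hairpin 2 (difference 1.31, edgeR adjusted p = 0.0549). In the antioxidant list the count was 12 of 13, and the exception was Keap1, at 0.32 and 0.20.

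**Figure D5:**
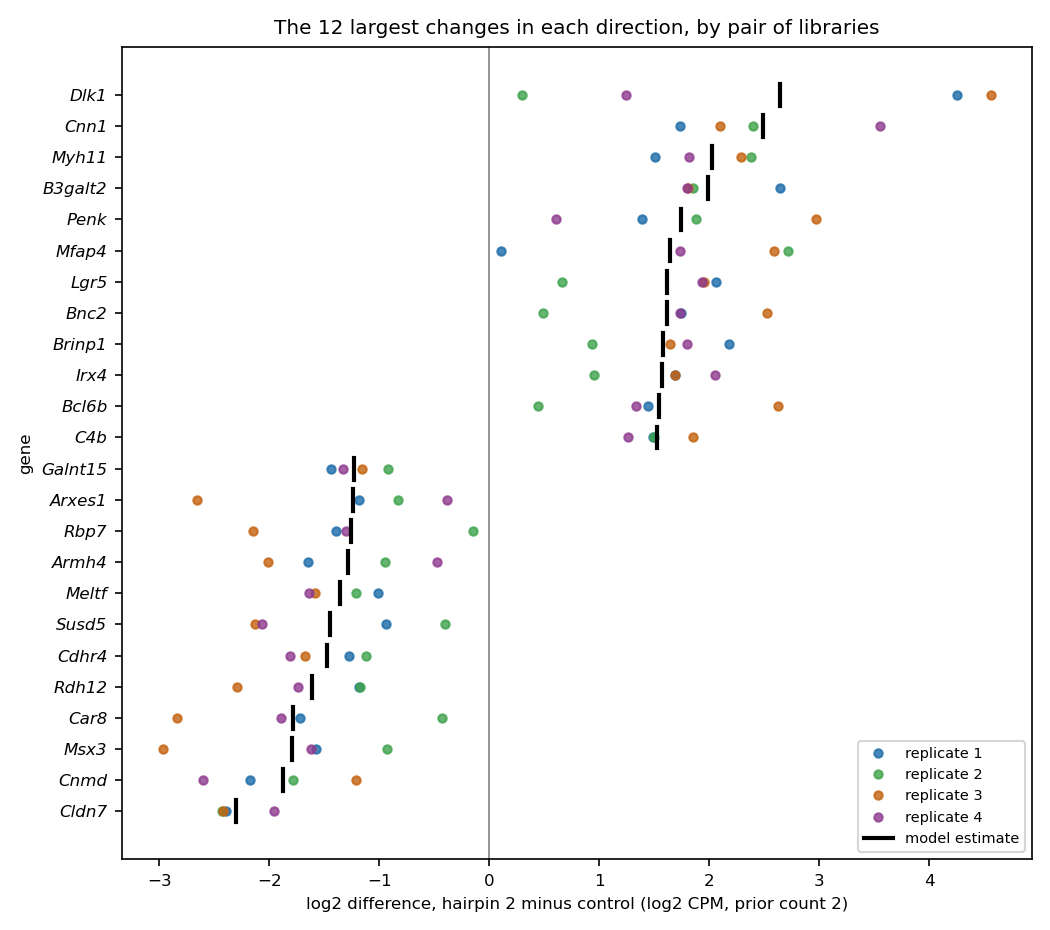
Log2 difference in CPM (prior count 2) between hairpin 2 and control in each of the 4 pairs for the 12 largest changes in each direction, with black bars for the model estimate. The pairs of Cldn7 and C4b lay close to each other, and those of Dlk1 ran from 0.30 to 4.56.

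Counting genes that passed and averaged at least 2 CPM, the 12 largest rises ran from 1.53 to 2.64. Dlk1, an imprinted gene for a Notch-ligand-like protein, had the largest estimate, 2.64 (SE 0.59, edgeR adjusted p = 0.031). It went from 2.13, 0.281, 0.01535 and 8.17 CPM to 41.2, 0.355, 1.19 and 19.4 CPM, so that replicate 2 hardly differed, and it lost the call without control replicate 1 or 3 or hairpin 2 replicate 1. C4b, complement component 4B, had the smallest of the 12 estimates and the tightest. It stood at 54.3, 75.2, 76.2 and 112 CPM in the control and at 152, 212, 276 and 269 CPM with hairpin 2, with no overlap, and it rose by 1.53 (SE 0.11, edgeR adjusted p = 0.000331). With hairpin 1 it was at 0.47, and the hairpins differed by 1.05 (edgeR adjusted p = 0.0013). Of its sampled sequence 32.2% also occurs in other genes, so part of these reads may be theirs.

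Among the rest of the 12, beside Cnn1, Myh11 and Lgr5, the galactosyltransferase B3galt2 rose by 1.99 (SE 0.30) and the neural gene Brinp1 by 1.58 (SE 0.26), and both kept the call in all 8 fits with 1 library left out. The homeobox gene Irx4 stood at 1.32, 7.56, 2.13 and 1.04 CPM in the control and 4.36, 14.7, 6.98 and 4.43 CPM with hairpin 2. It rose by 1.57 (SE 0.23), and it also rose with hairpin 1 (1.29, edgeR adjusted p = 0.0393). The opioid precursor Penk rose by 1.75, the microfibril protein Mfap4 by 1.64, the zinc finger gene Bnc2 by 1.61 and the repressor Bcl6b by 1.54. Mfap4 stood at 2.94, 0.225, 0.3225 and 18.1 CPM in the control and 3.16, 1.69, 2.13 and 60.65 CPM with hairpin 2. Penk, Bnc2 and Bcl6b lay below 2 CPM in control replicates 1 to 3. All of these genes were highest in replicate 4 of both groups, as the fibroblast sums were. The part of those markers in these rises was not tested. Penk, Mfap4 and Bcl6b each kept the call in 3 of the 8 fits with 1 library left out and Bnc2 in 5. Mfap4 was at -0.43 with hairpin 1, and the hairpins differed by 2.07 (edgeR adjusted p = 0.0178).

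After Cldn7, the largest falls ran from -1.23 to -1.88. Meltf, a membrane-bound transferrin family member, was the most precise of them, at 268, 153, 279 and 243 CPM in the control and 133, 66.2, 93.1 and 78.0 CPM with hairpin 2. Its groups did not overlap, and it fell by 1.36 on the log2 scale (SE 0.098, edgeR adjusted p = 0.000331). Rdh12, a retinol dehydrogenase, went from 37.9, 17.7, 57.2 and 22.7 CPM to 16.7, 7.84, 11.6 and 6.78 CPM, again with no overlap, and was at -1.61 (SE 0.16, edgeR adjusted p = 0.00193). Cdhr4, a cadherin-related gene, was at -1.47 (SE 0.15) with no overlap, but 47.3% of its exon bases overlap other annotated transcripts of the same strand. For Meltf, Rdh12 and Cdhr4 hairpin 1 gave -0.39, -0.37 and -0.36, none past the threshold, and the hairpins differed by -0.97, -1.25 and -1.11 (edgeR adjusted p = 0.0011, 0.00453 and 0.00469).

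Cnmd, which encodes chondromodulin, was at -1.88 (SE 0.29), with 18.7, 20.6, 26.3 and 10.3 CPM in the control and 4.11, 5.93, 11.3 and 1.66 CPM with hairpin 2. The homeobox gene Msx3 was at -1.79 (SE 0.32) and Car8, a carbonic anhydrase-related protein, at -1.78 (SE 0.31). Both had 1 control library, replicate 3, well above the others, at 57.4 CPM for Msx3 and 20.6 CPM for Car8, yet both kept the call without it. The glycosyltransferase Galnt15 was at -1.23 (SE 0.20) with no overlap, and with hairpin 1 at -1.03. Susd5, Armh4, the retinol-binding protein Rbp7 and Arxes1 were at -1.45, -1.29, -1.26 and -1.24, and kept the call in 5, 5, 2 and 1 of the 8 fits with 1 library left out. Arxes1 shares 38.3% of its sampled sequence with other genes.

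Few junction genes other than Cldn7 passed the test. Of 11 claudin and claudin-domain genes tested, Cldn7 fell and 10 did not pass, and the nearest were Cldn12 at -0.18 (SE 0.057, edgeR adjusted p = 0.102) and Cldn2 at 0.39 (SE 0.13, edgeR adjusted p = 0.119). Of 25 tight junction and polarity genes 1 fell, the membrane protein Marveld3 (-0.24, SE 0.053), and that call was lost without control replicate 1, 3 or 4 or hairpin 2 replicate 1 or 4. An unadjusted p under 0.05 was found for 13 of these 25 genes and for 3841 of all 17025 tested. Of 14 desmosome genes 1 rose, the desmosomal cadherin Dsc3, from 10.2, 73.1, 5.44 and 7.43 CPM to 20.3, 108, 16.1 and 23.1 CPM (1.17, SE 0.19), and it kept the call in all 8 fits with 1 library left out.

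Of 31 genes of adherens junctions and epithelial identity, 3 rose and 2 fell, with a median of -0.073. Epcam, the partner of claudin 7, stood at 1233, 1120, 1857 and 1023 CPM in the control and 1041, 921, 1337 and 802 CPM with hairpin 2, lower in each pair, and fell by 0.34 on the log2 scale (SE 0.062, edgeR adjusted p = 0.0151), a call lost without control replicate 3 or hairpin 2 replicate 4. The protease inhibitor Spint1 fell by 0.30 on the log2 scale (SE 0.056), a call lost without hairpin 2 replicate 4. Ehf, an epithelial ETS factor, went from 213, 273, 339 and 314 CPM to 320, 395, 488 and 434 CPM and rose by 0.53 (SE 0.057), against 0.040 with hairpin 1 (difference 0.49, edgeR adjusted p = 0.00228). Nectin1, an adhesion molecule, rose by 0.45 (SE 0.073) without overlap, and Cdh3 is given above. E-cadherin Cdh1 was at 0.021 (SE 0.063) and did not pass.

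Imprinted and insulin-like growth factor genes included several with large rises. Of 20 tested, 7 rose and 1 fell, with a median of 0.38 (0.26 in replicates 1 and 2, 0.57 in replicates 3 and 4). H19, an imprinted non-coding RNA, stood at 1.76, 1.57, 14.8 and 25.2 CPM in the control and 3.92, 2.53, 34.4 and 105 CPM with hairpin 2. It rose by 1.37 (SE 0.22, edgeR adjusted p = 0.00951) and differed from hairpin 1, where it was at 0.013 (difference 1.36, edgeR adjusted p = 0.0122). Meg3 rose by 1.20 and Ndn by 1.09, and the binding proteins Igfbp2, Igfbp3 and Igfbp4 rose by 1.11, 0.83 and 0.98. Igf2r, which clears IGF2, fell by 0.37 on the log2 scale. Of these 8 calls, 2 stood in all 8 fits with 1 library left out, those of H19 and Igfbp3. H19, Meg3, Ndn and Igfbp4 were highest in replicate 4 of both groups, as the fibroblast sums were, and the part of those markers in this result was not tested.

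Wnt, Notch and homeobox genes held a few calls each. Of 26 Wnt and Lgr genes 3 rose and 1 fell: beside Lgr5, the feedback inhibitor Nkd1 rose by 1.14 and the secreted Dkk3 by 1.09, and the nuclear factor Lef1 fell by 0.59 on the log2 scale. The 22 that did not pass included the feedback gene Axin2, at 0.68. The median of the 26 was 0.48, at 0.13 in replicates 1 and 2 and 0.92 in replicates 3 and 4. Of 16 Notch genes Jag2 rose and Dll1 fell. Of 22 homeobox and related genes 3 rose, Irx4, Tshz2 (1.337) and Hoxb3 (1.16), and Msx3 fell. Tshz2 and Hoxb3 share 67.5% and 52.9% of their exon bases with transcripts of the opposite strand, so these reads cannot be assigned with certainty.

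Hypoxia and glycolysis genes tended to lower values, with 26 of 28 below 0 and a median of -0.25. Of the 28, 5 fell and 1 rose, and 13 were lower in all 4 pairs. Pfkp, a phosphofructokinase, stood at 431, 258, 559 and 252 CPM in the control and 297, 188, 310 and 138 CPM with hairpin 2, and fell by 0.68 on the log2 scale (SE 0.081, edgeR adjusted p = 0.00265). The oxygen sensor Egln3, the carbonic anhydrase Car12, aldolase Aldoa and pyruvate kinase Pkm were at -0.89, -0.49, -0.51 and -0.42. Pfkfb3, which makes an activator of phosphofructokinase, rose by 0.63. Of these 6 genes, 5 also differed from hairpin 1 past the threshold. Control replicate 3 was the highest control library for Pfkp, Egln3, Car12, Aldoa and Pkm, and without it 2 of the 6 calls stood.

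Milk and luminal genes moved in both directions. Of 15 milk genes 4 rose: the butyrophilin Btn1a1 by 1.20 (SE 0.14), the casein Csn1s1 by 1.13 (SE 0.18), lactoferrin Ltf by 0.98 and the whey-acidic-protein relative Wfdc18 by 0.81 (SE 0.096). Btn1a1, of the milk fat globule membrane, was at 16.9, 46.0, 67.9 and 53.2 CPM in the control and 33.6, 99.7, 125 and 179 CPM with hairpin 2. Btn1a1 and Wfdc18 were at 0.11 and 0.009 with hairpin 1 and differed between the hairpins (edgeR adjusted p = 0.0046 and 0.00296), while Csn1s1 was at 1.56 with hairpin 1. Mfge8, a milk fat globule protein, fell by 0.39 on the log2 scale. Of 24 luminal genes Ly6a rose by 1.42 and Sox9 by 0.39, and Aldh1a3, a retinaldehyde dehydrogenase of luminal progenitors, fell by 0.57 on the log2 scale (SE 0.080).

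Receptors for matrix and soluble ligands held calls in both directions. Itgb3, the beta subunit of the vitronectin receptor, stood at 488, 418, 486 and 629 CPM in the control and 321, 231, 313 and 281 CPM with hairpin 2, without overlap, and fell by 0.82 on the log2 scale (SE 0.087, edgeR adjusted p = 0.00195). Itgb5 fell by 0.37 on the log2 scale and the fibronectin receptor subunit Itga5 rose by 0.91, 1 of the 4 calls among 17 integrins and collagen receptors with Itga8. Cxcr4, the receptor of Cxcl12, stood at 56.0, 47.8, 149 and 36.0 CPM in the control and 21.9, 35.5, 40.2 and 15.4 CPM with hairpin 2. Cxcr4 fell by 1.22 on the log2 scale (SE 0.18, edgeR adjusted p = 0.00597), and Cxcl12 fell by 0.30, so that 2 of 25 chemokine genes fell and 0 rose. The median of these 25 changed sign, at -0.40 in replicates 1 and 2 and 0.47 in replicates 3 and 4. Of 29 TGF-beta and BMP genes, the latent binding protein Ltbp4 and the co-receptor Tgfbr3 rose by 1.15 and 0.36, and Ltbp2 and the activin subunit Inhbb were at -0.80 and -0.41. In all 8 fits with 1 library left out, 2 of the 4 integrin and collagen receptor calls, 1 of the 2 chemokine calls and 2 of the 4 TGF-beta and BMP calls stood.

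Of 25 ERBB and FGF pathway genes, Fgfr2 rose by 0.77 and Etv5, an ETS factor downstream of FGF signals, was at -0.49, with 26.3% of its sequence shared with other genes. Neither call stood without control replicate 1 or 3. Erbb2, the gene of the Neu oncogene, stood at 2960, 3569, 5269 and 6548 CPM in the control and 3208, 4103, 4264 and 5734 CPM with hairpin 2 (-0.044, SE 0.10). Of 22 YAP-TAZ genes 4 rose: Axl, the transmembrane protein Crim1 (0.57), the YAP partner Tead1 (0.54) and Arhgef17 (0.40). Of 33 actin regulators, the small GTPase Rnd3, the SRF cofactor Mrtfa and the actin nucleation gene Wasl rose by 0.46, 0.37 and 0.27, and ezrin (Ezr), which ties actin to the membrane, fell by 0.36 on the log2 scale (SE 0.051). Of the YAP-TAZ calls 1 of 4, and of the actin calls 1 of 4, stood in all 8 fits with 1 library left out.

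Smaller counts were found in the other lists. Of 26 lipid genes, the acyltransferase Dgat1 rose by 0.29 and Agpat2 and Mogat1 were at -0.42 and -0.51. They kept the call in 5, 8 and 2 of the 8 fits with 1 library left out. Mogat1 was lower still with hairpin 1 (-1.09, edgeR adjusted p = 0.00592), and hairpin 2 minus hairpin 1 was 0.58 (edgeR adjusted p = 0.0276). Of 32 interferon and antigen genes Bst2 and Stat2 rose by 0.58 and 0.46, of 24 immediate early genes Egr1 and Nr4a2 rose by 0.55 and 0.54, and of 25 proteases and inhibitors Timp2 rose by 0.68. Bst2 and Stat2 each kept the call in 1 of the 8 fits with 1 library left out. Neither immediate early call stood without control replicate 3 or hairpin 2 replicate 1 or 4, and that of Timp2 was lost without control replicate 1, 3 or 4 or hairpin 2 replicate 1 or 4. The median of the 25 proteases and inhibitors was -0.011 in replicates 1 and 2 and 0.955 in replicates 3 and 4. Of 22 endoplasmic reticulum stress genes Herpud1 fell by 0.41 on the log2 scale, a call lost without control replicate 1. None of 33 cell cycle, 27 cholesterol and fatty acid synthesis, 20 p53 response or 13 mitochondrially encoded genes passed, and their medians were 0.13, -0.15, 0.034 and -0.27. In edgeR 0, 2, 4 and 5 of them had an unadjusted p under 0.05, and DESeq2 with the replicate number called 0, 1, 2 and 1. The proliferation marker Mki67 was at 0.35 (SE 0.27), with 162 CPM in control replicate 3 against 97.0 with hairpin 2 and the opposite order in the other 3 pairs.

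Of the other marker lists, 1 of 14 endothelial genes rose, the ETS factor Erg (0.87), whose call stood in 1 of the 8 fits with 1 library left out, and none of 21 macrophage, 17 lymphocyte, 5 adipocyte, 12 Schwann cell and neural or 16 skeletal muscle genes passed. In edgeR 0, 0, 1, 3 and 1 of these had an unadjusted p under 0.05, and DESeq2 with the replicate number called 2 Schwann cell and neural genes and none of the others. Skeletal muscle markers summed to 174, 134, 34.5 and 77.9 CPM in the control and 302, 471, 39.6 and 38.5 CPM with hairpin 2, with Myh7, a slow myosin, at 88.7 and 65.1 CPM in control replicates 1 and 2 against 160 and 295 CPM. Macrophage markers summed to 212 CPM in control replicate 1 and to 54.7 CPM in hairpin 2 replicate 1. The effect of hairpin 2 in replicates 3 and 4 minus that in replicates 1 and 2 passed for 0 genes in edgeR's test, with 1278 at an unadjusted p under 0.05. The larger medians in replicates 3 and 4 given for basal, matrix, Wnt and protease genes were thus not past the threshold gene by gene.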

How the data were processed

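RNA sequencing was analysed from the gene table that the authors deposited, which holds raw read counts per gene with 1 column per library; per the file headers the columns are named by group and replicate. Build mm10 and the tools DESeq2 1.34.0, FastQC 0.74 and Trimmomatic 0.39 appear, with no roles, in the submitters' processing notes. For aligner, annotation and strand setting, the sources used here give nothing. Per the labels' protocols, the library kit was NEBNext Ultra with poly(A) selection. All 12 columns were mapped to samples by name, and 0 columns were left unused.

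Of 25861 genes, edgeR's filterByExpr by group kept 17025, and every library kept 99.966% of its counts or more. Counts were scaled by TMM and tested with edgeR 4.0.16 (R 4.3.3, quasi-likelihood test, 6 residual degrees of freedom) over all 12 libraries with group and replicate number in the model, and p-values were adjusted by Benjamini-Hochberg over all genes tested at a threshold of 0.05. CPM use the TMM-scaled library size. Pair differences use log2 CPM with a prior count of 2. The pairing comes from the replicate numbers in the titles: after subtracting group means, same-numbered libraries of these groups correlated at 0.859 to 0.905 (4 pairs) and differently numbered ones at -0.802 to 0.727. The biological coefficient of variation was 0.141 with the replicate number and 0.648 without it. No libraries were near duplicates (chi-square per degree of freedom within groups 41 to 480).

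The genes named were Cldn7 and Acta2; the 12 largest called changes in each direction, given a mean of 2 CPM or more, 1 sign in all 4 pairs and a proper gene symbol; the 4 members of smallest p, where there were so many, in each of 40 lists (870 genes, 840 tested); and the 5 of smallest p in each direction that passed both against the control and against hairpin 1. Other list members that passed, and a few well-known members that did not, were named after their values were seen; 1 member that passed is not reported here. The members and lists were chosen with earlier results of these data known. Some genes stand in more than 1 list. Promoters are from RefSeq on GRCm38.p6, and 25233 of the 25861 gene numbers were found in its gene table. Shared sequence is the share of 50-base windows, every 10 bases, of a gene's GENCODE M21 transcripts that also occur in other genes, and exon overlap is from the same annotation. The alternatives were the model without the replicate number, the 8 libraries alone, DESeq2 1.42.0, RLE scaling, no filter, a filter of at least 1 CPM in 4 libraries, each library left out, and replicates 1 and 2 or 3 and 4 alone. The test was checked on simulated data before use.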

Additional observations from a re-analysis of the deposited data

Results flagged for a closer look

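In 272 groups of 4 libraries examined for the genes named by the report, 11 had 1 library far from the other 3 by Dixon's test, where chance alone would mark about 1 group in 20. In the control group, Lgr5 stood at 3.627 CPM in replicate 1 against 10.8 to 12.1 CPM in the others, Galnt15 at 3.454 CPM in replicate 1 against 2.76 to 2.82, Car8 at 20.59 CPM in replicate 3 against 5.56 to 6.48, and Wfdc18 at 179.5 CPM in replicate 4 against 508 to 607. In the hairpin 2 group, replicate 4 stood apart for the basement membrane genes Hspg2 (436.6 CPM against 103 to 122) and Nid2 (19.01 CPM against 0.727 to 0.955). Its control, replicate 4, was also the highest control library for both. Replicate 1 of hairpin 2 stood apart for Stat2 (84.25 CPM against 146 to 161), Nqo1 (441.1 CPM against 307 to 325) and Fth1 (3055 CPM against 1450 to 1620), replicate 2 for Aldh1a3 (238.7 CPM against 153 to 157) and replicate 3 for Msx3 (7.334 CPM against 2.84 to 3.26).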

How the results depend on the processing

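RLE scaling, no filter and a filter of at least 1 CPM in 4 libraries gave counts within 1.5 times of the reported ones, no result turned its direction under any alternative tried, and Cldn7 passed throughout, at -2.17 to -2.41. With no replicate block, the count of genes higher with hairpin 2 was 0 and lower 1, smooth muscle genes higher 0, genes differing between the hairpins 1, and Acta2 1.12 (edgeR adjusted p = 1). The paired model on the 8 libraries alone gave 51 higher, 46 lower, 3 smooth muscle genes and Acta2 at 1.10 (edgeR adjusted p = 0.0502). Replicates 1 and 2 alone gave 32 higher, 50 lower, 3 smooth muscle genes, 84 genes differing between the hairpins and Acta2 at 0.77 (edgeR adjusted p = 0.106). Replicates 3 and 4 alone gave 258 higher, 69 lower and 42 differing. DESeq2 with the replicate number gave 937 higher, 923 lower, 11 smooth muscle genes and 1436 differing. With 1 library left out, genes higher ran from 148 (without control replicate 3) to 608 (without hairpin 2 replicate 2), genes lower from 177 (without control replicate 1) to 468 (without hairpin 2 replicate 2), smooth muscle genes higher from 4 to 8, genes differing from 252 (without hairpin 2 replicate 1) to 672 (without control replicate 3), and Acta2 from 0.97 to 1.38. Leaving out control replicate 1, 3 or 4 or hairpin 2 replicate 1 or 4 lowered both counts by over 1.5 times, to 192, 148, 259, 207 and 183 higher and 177, 194, 312, 230 and 202 lower. Of the 981 calls, 248 stood in all 8 such fits, 975 in DESeq2 and 95 in the 8 libraries alone. At these depths, 8836 genes were too low to be tested.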
